A study of Mus musculus with 4 samples.

Results

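The 37 genes described here encode proteins of the DNA damage checkpoint and of DNA repair, and were taken from a list of symbols. Their probes were found by matching the accession of each array probe to a mouse gene table, and the brightest probe stood for the gene. All 37 had a probe on the array. Of these genes, 31 gave signal well over background on both arrays of 1 group or the other and were compared, among 26378 genes in all. They fell into 13 checkpoint genes, 8 of homologous repair, 6 of the Fanconi pathway and 4 of mismatch and other repair. The remaining 6, Chek2, Clspn, Palb2, Rad54l, Fancd2 and Brip1, were too dim to be compared and are described separately.

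RNA of pancreatic islets, the endocrine cell clusters of the pancreas, was measured on 4 single-colour Agilent arrays. The control group was 2 samples of genotype Pdx1-Cre, called wild type in the sample titles, and the Rb-deficient group was 2 samples of genotype Pdx1-Cre:Rbf/f, so that all samples carried the Cre transgene and the groups differed in the floxed Rb alleles. Pdx1-Cre acts in the pancreatic lineage, while macrophages and vessel cells inside islets come from other lineages and keep the gene. The labels give neither age nor sex and do not say whether samples came from separate mice or from pools. The p values thus measure the spread between these samples, of which an unknown part may be technical. In control that spread is not technical alone, as the 2 controls differed in sex-linked genes, described below. Fewer cells of a type and less RNA per cell cannot be told apart in such bulk samples.

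When DNA is broken or a replication fork stalls, the kinases ATM and ATR are activated and pass the signal through mediator proteins to CHK1 and CHK2, which halt the cell cycle. Homologous repair copies the lost sequence from the sister chromatid, the Fanconi proteins unhook crosslinked strands at forks, and mismatch repair corrects copying errors. Many of these genes are known targets of E2F transcription factors, which Rb holds in check, and are switched on as cells enter S phase, whereas adult islet cells rarely divide.

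Promoter sequences of the members show where E2F-type letters lie. RefSeq promoter windows of build GRCm38.p6, from 250 bases before to 50 bases after the gene start, were matched by symbol for 30 of the 37 genes. The letters searched on both strands were TTTCCCGC, TTTGGCGC and TTTCGCGC. They were found in 9 of the 30 genes (30%), against 2.12% of 27025 genes with a window in the same table, and base composition was not matched between these sets. The stretches below come from Topbp1, Mdc1, Brca2 and Msh6, whose signal was higher on both Rb-deficient arrays, and from Bard1 and Fancg, where that was not so. They are written 5′ to 3′ on the strand of the gene, with the searched letters, or their reverse complement, in capitals.
Topbp1, chr9:103305173-103305230, plus strand: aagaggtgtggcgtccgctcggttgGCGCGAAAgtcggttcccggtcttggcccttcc
Mdc1, chr17:35841457-35841514, plus strand: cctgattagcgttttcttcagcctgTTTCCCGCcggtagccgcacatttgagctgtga
Brca2, chr5:150522428-150522485, plus strand: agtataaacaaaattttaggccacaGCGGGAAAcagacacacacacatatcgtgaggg
Msh6, chr17:87975040-87975079, plus strand: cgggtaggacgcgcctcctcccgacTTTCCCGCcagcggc
Bard1, chr1:71103149-71103206, minus strand: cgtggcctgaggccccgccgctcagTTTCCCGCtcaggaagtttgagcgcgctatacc
Fancg, chr4:43010321-43010378, minus strand: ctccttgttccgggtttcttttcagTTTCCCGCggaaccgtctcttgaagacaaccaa
The same letters were present in Chek2, Clspn and Rmi1. Of the 6 genes with a window whose Rb-deficient arrays both lay above both controls and whose mean log2 difference was at least 0.5, 3 held them, and of the 24 other members with a window 6 did (25%). The 24 include genes too dim to be compared, among them Chek2 and Clspn, and Mdc1, whose difference of 0.48 fell just under the cut. This split uses the values of these data and rests on few genes. The CCAAT box was present in 16 of the 30 members (53.3%) and in 41.1% of all genes. The letters TTTGAA, which match an element of mitotic genes, were present in 2 of the 30 (6.67%) and in 20.2% of all genes. A match describes the letters only.

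The arrays were not alike in every respect. Gcg and Ppy, markers of other islet cells, set Rb-deficient array 2 apart. Gcg had a log2 signal of 7.96 there, against 9.26 to 9.44 on the other 3. Ppy was 9.28 there and 6.30 on Rb-deficient array 1, with 7.36 and 8.17 in control. Of all probes, 76.5% were well above background on control array 1, against 59.0% to 59.9% on the other 3, and Xist was near the detection floor on control array 1 alone, with a log2 signal of -7.40 against -1.35 to -0.65. The 4 Y-linked genes read were well above background on control array 1 alone, so that this array differed from the other 3 in these sex-linked genes. The 2 controls were therefore not repeats of 1 RNA sample, and sex was not adjusted for in the comparison. All 4 arrays lay on 1 slide. Genes that mark beta cells were well above background on every array, 10 of 10, as the tissue label implies, with a summed signal 2435 to 3519 times the array's 75th percentile. Rb1, the targeted gene, had log2 signals of 0.28 and 0.86 in control and -0.48 and -0.90 in Rb-deficient islets, and whether its probes lie in the deleted stretch is not known here. Signal is given throughout as log2 of the processed intensity minus the array's 75th percentile, so that 0 is that percentile, and levels of different genes are not compared.

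No member passed the test between Rb-deficient and control islets, but at 2 against 2 arrays this test has little power. In simulated data it called 0 of the genes changed by 2 or 3 log2 units. The simulation took each gene's spread as estimated from these few arrays, which may understate the power. Even so, 0 calls do not show absence of change. With Benjamini-Hochberg adjustment in limma across every gene, 0 of 31 were called, the background being 0% of 26378 genes, and the adjusted p values of the members ran from 0.62 to 0.99. At an unadjusted p under 0.05, 5 of 31 were higher (16.1%, background 1.48%) and 0 were lower (background 4.18%). The mean was higher in Rb-deficient islets for 20 of 31 genes (64.5%, background 41.9%) and lower for 11 (background 58.1%). The difference was at least 2-fold for 5 higher genes (background 1.7%) and 1 lower gene, Brca1 (background 8.03%). Both Rb-deficient arrays lay above both controls for 14 (45.2%, background 15.3%). One gene, Fancg, lay below both controls (background 20.7%), by 0.04 in mean, while its second kept probe was higher by 0.37. The median log2 difference was 0.22, against -0.07 for all genes tested. Of the 15826 tested genes with a symbol, as the members all have, 52.5% were higher in mean, 19.8% lay above both controls, 1.88% were higher at an unadjusted p under 0.05, and the median was 0.02. Scaling to the array median shifted each array by its own constant. The difference of every gene rose by the same amount, and the median of all genes went from -0.07 to 0.37. With it 30 of 31 members (96.8%) and 75.3% of all genes were higher. Such constants can also change the spread between arrays of a group. Median scaling called 3 members in limma, Rad51ap1 (adjusted p 0.011), Fanci (0.0074) and Exo1 (1.7e-05), among 480 genes, of which 246 were lower. Quantile normalization put 25 members and 54.8% of all genes higher and called 0. Exo1, Chek1 and Fanci entered the comparison only through signal in the Rb-deficient group, and of the 28 members measured on all 4 arrays 17 were higher and 13 were above both controls (46.4%), where 16.2% of all genes so measured were. At least 2-fold higher were 3 of these 28 (10.7%), against 1.28% of all genes so measured.

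**Figure D1:**
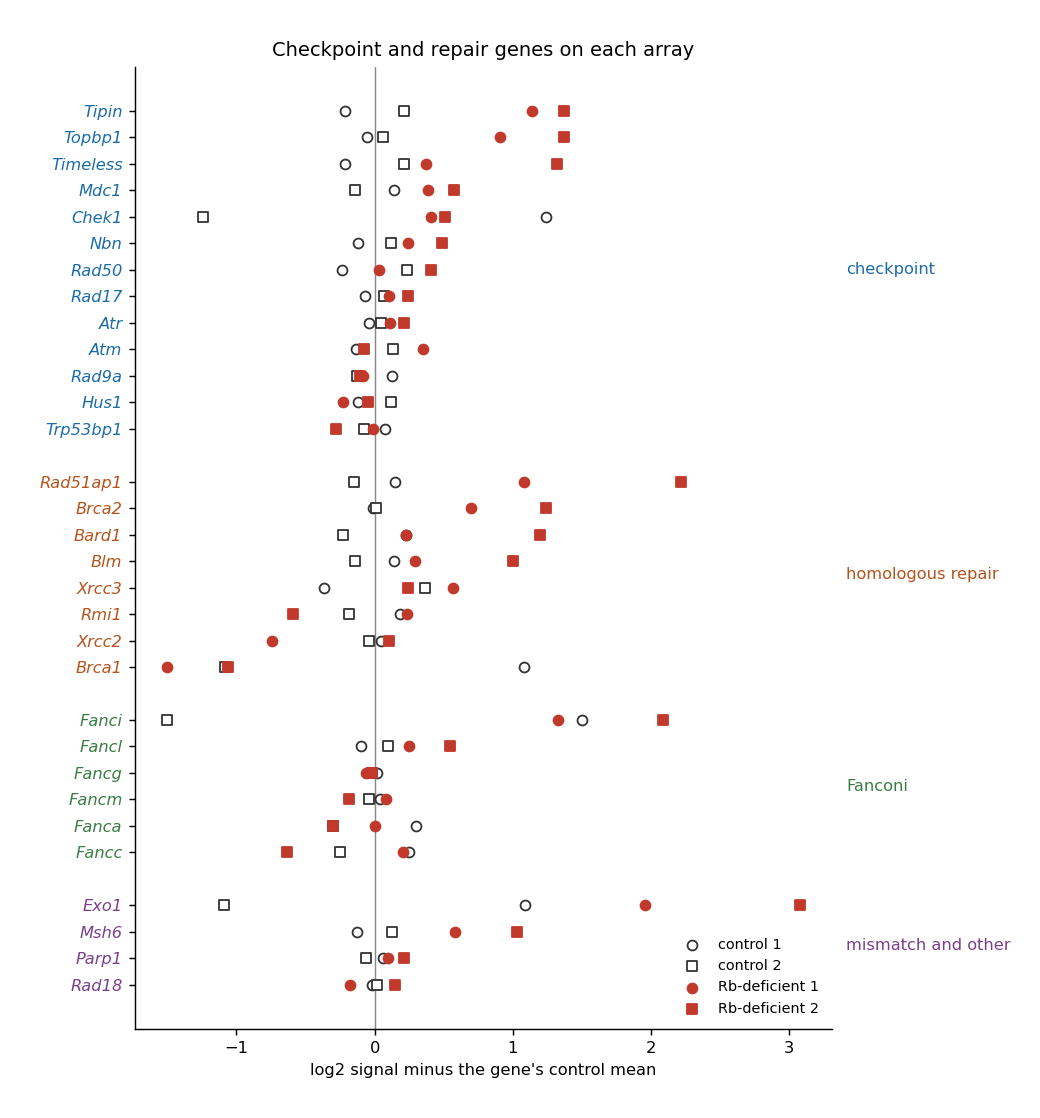
Log2 signal of each of the 31 genes on each of the 4 arrays, as the distance from the mean of the gene's 2 control arrays (x axis), with genes grouped by pathway. Open symbols are control and filled symbols Rb-deficient arrays, and both filled symbols lie to the right of both open ones for 14 genes, among them Tipin, Topbp1, Rad51ap1, Brca2, Msh6 and Exo1.

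Among the kinases at the head of the checkpoint, no separation beyond the spread between samples was seen. Atr, which answers to stalled forks, had log2 signals of 0.21 and 0.30 in control and 0.37 and 0.47 in Rb-deficient islets. The groups did not overlap, but the difference of 0.16 had a standard error of 0.18 and a 95% interval from -0.34 to 0.66. Atm, which answers to double-strand breaks, had -0.57 and -0.30 in control and -0.08 and -0.51 in Rb-deficient islets. These values interleave, and the 95% interval of the difference ran from -0.57 to 0.85. Chek1, the kinase that ATR activates, had -2.99 and -5.47 in control and -3.82 and -3.72 in Rb-deficient islets. Both Rb-deficient samples thus lay between the controls, of which array 2 was not well above background. The difference of Chek1 was 0.46 with all arrays, 1.70 without control array 1 and -0.78 without control array 2, and its other probe gave 1.20.

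Tipin, Topbp1 and Timeless had the largest differences of the checkpoint genes compared. Tipin, a partner of Timeless in the complex that travels with the fork, had log2 signals of 0.72 and 1.15 in control and 2.07 and 2.30 in Rb-deficient islets. Both Rb-deficient samples were well above both controls. The signal was 2.39-fold higher, a log2 difference of 1.26 with a standard error of 0.25 (limma p 0.0078, Benjamini-Hochberg adjusted p 0.62). Topbp1, a direct activator of ATR, had -1.83 and -1.72 in control and -0.87 and -0.40 in Rb-deficient islets. The groups were again apart, by 1.14 with a standard error of 0.24 (limma p 0.010, adjusted p 0.67), and the gene's second probe gave 1.05. Timeless had -1.29 and -0.86 in control and -0.70 and 0.24 in Rb-deficient islets. The nearest arrays of the groups were close, and the difference of 0.84 (standard error 0.41, limma p 0.11) had a 95% interval from -0.32 to 2.01. It was 0.37 without Rb-deficient array 2. The other probe of Timeless gave 1.66.

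The clamp that marks damaged DNA and its loader differed little. Rad17, the loader, had 1.54 and 1.68 in control and 1.71 and 1.85 in Rb-deficient islets, a difference of 0.17 with a standard error of 0.18. Rad9a and Hus1, subunits of the clamp, differed by -0.09 and -0.14, with standard errors of 0.19 and 0.20 and overlapping groups. Both turned positive with scaling to the array median.

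Sensors and mediators at double-strand breaks went in different directions by small amounts. Mdc1, the scaffold that binds marked chromatin beside a break, had 0.14 and -0.14 in control and 0.38 and 0.58 in Rb-deficient islets. Both Rb-deficient values were higher, by 0.48 in mean with a standard error of 0.21. A second, dim probe of Mdc1 gave 2.07, with signal well above background on the Rb-deficient arrays alone. Nbn and Rad50, subunits of the MRN complex that grips broken ends, differed by 0.36 and 0.22 with standard errors of 0.21 and 0.28. Nbn was above both controls on both arrays, while the groups of Rad50 overlapped and its other probe gave -0.33. Trp53bp1, which steers breaks away from resection, differed by -0.15 with a standard error of 0.20, and its 4 probes gave -0.34 to -0.08.

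Homologous repair held both the largest difference measured on all arrays and the largest disagreement between probes. Rad51ap1, which stimulates the strand exchange step, had log2 signals of -3.56 and -3.85 in control and -2.62 and -1.48 in Rb-deficient islets. Both Rb-deficient samples were higher, the second by more. The signal was 3.14-fold higher, a log2 difference of 1.65 with a standard error of 0.46 (limma p 0.025, Benjamini-Hochberg adjusted p 0.79), and the second probe gave 1.74. With normexp background correction the difference was 0.72, and it was 1.08 without Rb-deficient array 2.

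Brca2, the tumour suppressor that acts in strand invasion, had -3.21 and -3.19 in control and -2.51 and -1.96 in Rb-deficient islets. The control arrays were nearly equal and both Rb-deficient arrays lay above them, by 0.97 in mean with a standard error of 0.26 (limma p 0.022, adjusted p 0.79). A second Brca2 probe gave 0.96, and a further, dimmer one gave -0.07. Blm, the helicase mutated in Bloom syndrome, had -1.86 and -2.14 in control and -1.71 and -0.996 in Rb-deficient islets. Its difference of 0.65 (standard error 0.33) was 0.29 without Rb-deficient array 2, and its other probe gave 0.10. Bard1, the partner of BRCA1, had -3.27 and -3.73 in control and -3.28 and -2.30 in Rb-deficient islets. Its first array of each group thus coincided, and the difference of 0.71 rested on Rb-deficient array 2, without which it was 0.22.

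Brca1, which acts in end resection, could not be given a direction. Its brightest probe had -1.26 and -3.42 in control and -3.83 and -3.39 in Rb-deficient islets. Control array 1 stood apart from the other 3, and the difference of -1.28 (standard error 0.82) was -0.20 without it. The other probe of Brca1 had -3.88 and -5.45 in control and -4.07 and -3.33 in Rb-deficient islets, a difference of 0.96. On that probe too control array 1 was above control array 2, where the probe was not well above background. Xrcc3 differed by 0.40 and Xrcc2 by -0.32, both genes of homologous repair, and Rmi1, a subunit of the complex with BLM, by -0.18. The groups of these 3 genes overlapped, and the standard errors were 0.34, 0.35 and 0.37.

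**Figure D2:**
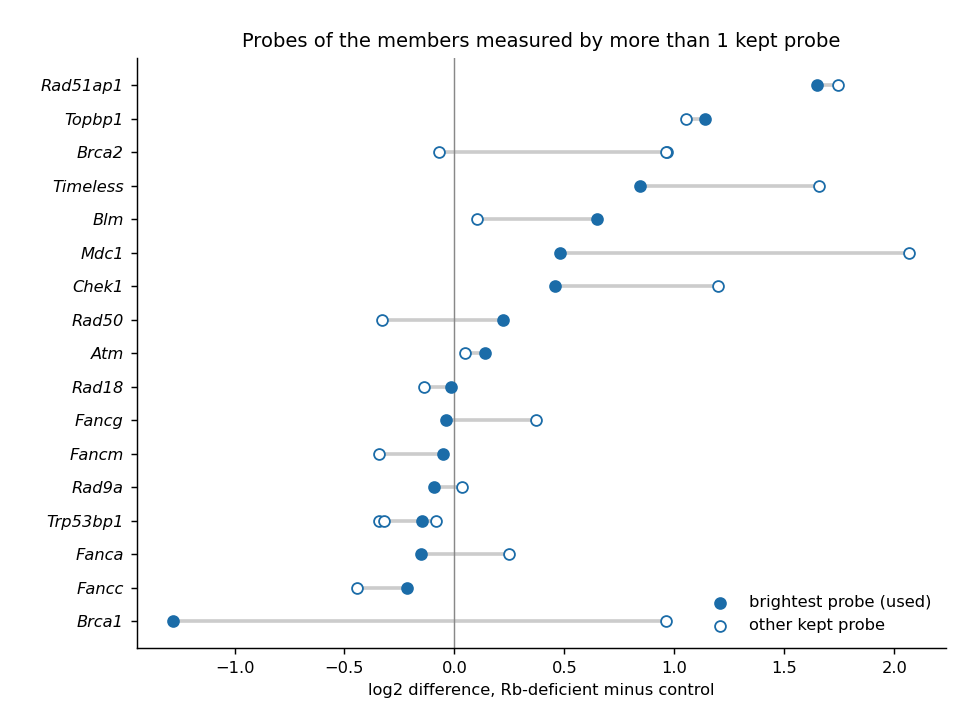
Log2 difference between Rb-deficient and control islets (x axis) for each kept probe of the 17 genes measured by more than 1, with the brightest probe filled. The probes of Rad51ap1 and Topbp1 lie close together, while those of Brca1 span from -1.28 to 0.96.

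Of the 17 genes with more than 1 kept probe, 11 had probes that all differed in the same direction. The other 6 were Brca1, Brca2, Fanca, Fancg, Rad50 and Rad9a. The 14 remaining genes were measured by 1 kept probe, among them Tipin, Msh6, Exo1 and Fanci.

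The core of the Fanconi pathway showed small differences beside their spread. Fanca, Fancc, Fancg and Fancm, subunits of or anchors for the core complex that ubiquitinates FANCD2 and FANCI, differed by -0.15, -0.22, -0.04 and -0.05, with standard errors from 0.17 to 0.39. Their 95% intervals reached from -1.33 at the lowest to 0.89 at the highest. Fancl, the ubiquitin ligase of that complex, had 0.38 and 0.58 in control and 0.73 and 1.03 in Rb-deficient islets. By the brightest probe it was the core gene with both Rb-deficient arrays above both controls, by 0.40 with a standard error of 0.21. The second kept probe of Fancg also lay above both controls. It had -1.42 and -1.49 in control and -1.15 and -1.02 in Rb-deficient islets, a difference of 0.37.

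Fanci, a target of that ligase, had -4.35 and -7.35 in control and -4.52 and -3.77 in Rb-deficient islets. The Rb-deficient values straddled control array 1, and the probe was not well above background on control array 2. The difference of 1.71 had a standard error of 1.13, was 0.20 without control array 2 and was 0.17 with normexp background correction. Fancd2, its partner, was not well above background on any array.

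Msh6, the subunit that recognises mismatches, had signal on all arrays, and Exo1, the exonuclease that removes the faulty strand, on the Rb-deficient arrays alone; neither passed the test. Msh6 had 1.08 and 1.34 in control and 1.79 and 2.24 in Rb-deficient islets. Both Rb-deficient samples were above both controls, by 0.81 in mean with a standard error of 0.25 (limma p 0.035, Benjamini-Hochberg adjusted p 0.84), a 1.75-fold difference. Exo1 had -5.26 and -7.44 in control, where it was not well above background, and -4.39 and -3.27 in Rb-deficient islets, where it was on both arrays. A floor was set for each control array, at the higher of the probe's own signal and the dimmest signal well above background there. Against it Exo1 was at least 2.62-fold higher in the reported processing alone. The gene entered the comparison only through its signal on the Rb-deficient arrays, so this bound is not separate evidence of a rise. The measured difference came to 2.52 with a standard error of 0.90, and it was 0.33 with normexp background correction and 1.43 without control array 2. Parp1, which senses nicks and breaks, differed by 0.15 and Rad18, the ligase of lesion bypass, by -0.01, with standard errors of 0.18 and 0.21.

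In the 8 genes with both Rb-deficient arrays above both controls and a mean difference of at least 0.5, namely Tipin, Topbp1, Timeless, Rad51ap1, Brca2, Blm, Msh6 and Exo1, Rb-deficient array 2 was higher than array 1. By pathway the median difference was 0.22 for checkpoint genes and 0.52 for homologous repair. With no filter on dim probes the latter was 0.11 over 10 genes, 5 higher and 5 lower. The median was -0.05 for the Fanconi genes (0.39 with median scaling, 0.079 with quantile normalization) and 0.48 for mismatch and other repair. The last includes Exo1, and was 0.15 over the 3 genes measured on all arrays and 0.23 with normexp background correction. On Rb-deficient arrays 1 and 2 the medians stood at 0.24 and 0.41 above the control mean for checkpoint genes, 0.26 and 0.62 for homologous repair and 0.34 and 0.62 for mismatch and other repair. The Fanconi median was 0.14 on array 1 and -0.10 on array 2.

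Other gene lists moved with these values. Of 15 genes of proliferating cells, such as Mki67 and Top2a, all were above both controls (background 15.3%), with a median difference of 1.78. Their summed signal was 5.91 and 6.12 times the 75th percentile on the control arrays and 17.5 and 32.2 on Rb-deficient arrays 1 and 2, and thus also larger on array 2. Macrophage markers were higher in mean in 18 of 19 genes tested (94.7%, background 41.9%). Their median difference was 0.92, and it was 0.33 on Rb-deficient array 1 and 1.53 on array 2. Their summed signal, most of it on the controls from Itgam, which itself differed by -0.27, was 54.0 and 55.1 in control and 62.5 and 71.2 in Rb-deficient islets. All 20 of their markers on the array were well above background on at least 1 array. Acinar markers were lower in 14 of 14 genes (background 58.1%), with sums of 9132 and 7402 in control and 6637 and 3778 in Rb-deficient islets. The part of these cells in the differences of the repair genes was not tested.

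**Figure D3:**
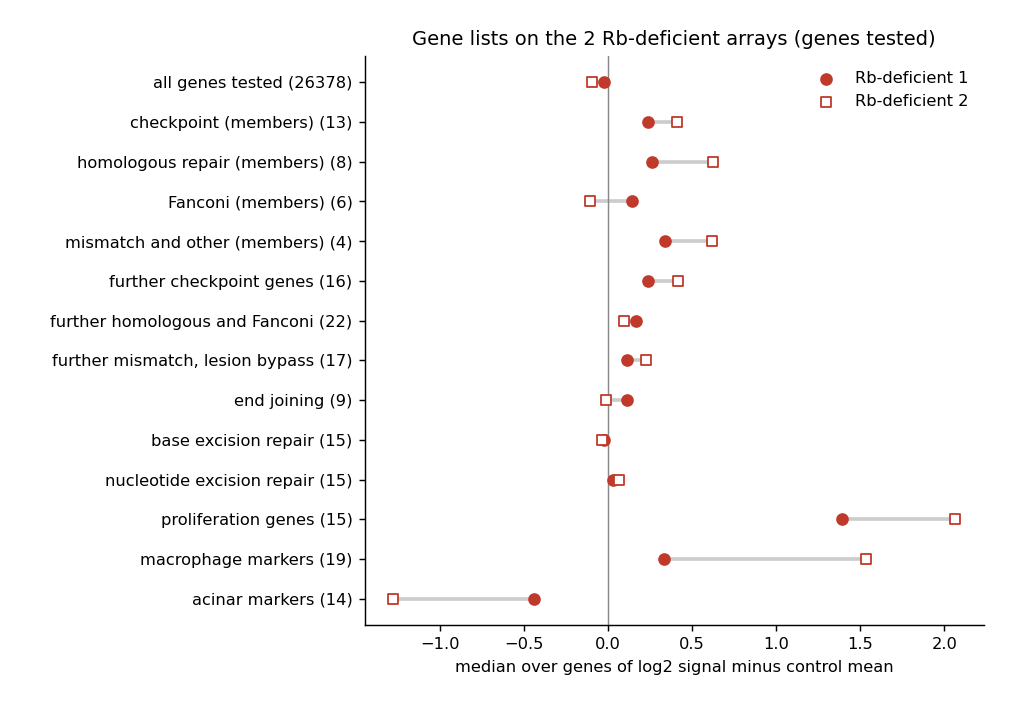
Median over the genes of each list of the log2 signal minus the control mean (x axis), on each of the 2 Rb-deficient arrays, with the number of genes tested in brackets. The proliferation list lies at 1.39 and 2.07, the excision repair lists lie within 0.07 of 0, and checkpoint, homologous and mismatch repair lie between.

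The members' dim genes were read probe by probe. Chek2, the kinase downstream of ATM, had -3.81 and -7.38 in control and -5.46 and -5.81 in Rb-deficient islets, and was well above background on control array 1 alone. Clspn, the adaptor that brings CHK1 to ATR, was well above background on control array 1 and Rb-deficient array 2, with a log2 signal of -4.48 and -4.78 there for the probe that reached it on both and -7.23 and -7.21 on the other 2. Rad54l, a motor protein of strand exchange, had signal on those same arrays, at -3.30 and -4.73. Palb2, which bridges BRCA1 and BRCA2, was above background with 1 probe, on control array 1 alone, and Brip1, the helicase FANCJ, on Rb-deficient array 2 alone at -4.47. No fold is given for these genes.

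Genes of the same pathways outside the member list were summarised from lists of 98 genes, of which 94 were tested and 0 called. At an unadjusted p under 0.05 in limma, 5 of the 94 were higher (5.32%, background 1.48%) and 1 was lower (background 4.18%). Both Rb-deficient arrays lay above both controls for 32 (34.0%, background 15.3%), and the median difference was 0.13. Of 16 further checkpoint genes 11 lay above both controls, with a median of 0.36, and the smallest p was that of Rpa2, a subunit of the single-strand binding protein that recruits ATR, at 0.65 with a standard error of 0.20 (adjusted p 0.83).

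Among 22 further genes of homologous repair and the Fanconi pathway, 7 lay above both controls (31.8%, background 15.3%) and the median was 0.15. Ube2t, the conjugating enzyme that works with FANCL, had -3.13 and -3.31 in control and -2.05 and -1.17 in Rb-deficient islets, a difference of 1.61 with a standard error of 0.37. In limma its Benjamini-Hochberg adjusted p was 0.70.

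Of 17 further genes of mismatch repair and lesion bypass, 15 were higher in mean (88.2%, background 41.9%) and 7 lay above both controls (41.2%, background 15.3%). Pcna, the sliding clamp of replication, had 1.91 and 2.04 in control and 2.73 and 3.42 in Rb-deficient islets. Both Rb-deficient samples were higher, by 1.10 in mean with a standard error of 0.31 (limma p 0.025, adjusted p 0.80).

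Repair routes that do not depend on the sister chromatid differed little as lists. Of 9 end joining genes 2 lay above both controls (22.2%, background 15.3%, or 19.8% of genes with a symbol), with a median of 0.08. Xrcc6, which encodes the Ku70 end-binding protein, differed by 0.53 with a standard error of 0.25. Of 15 genes of base excision repair 3 lay above both controls (20%, background 15.3%) and 4 below (background 20.7%), with a median of 0.04. Neil3, a glycosylase, was the exception in size, at 1.65 with a standard error of 0.48. Of 15 genes of nucleotide excision repair 2 lay above both controls (13.3%, background 15.3%), and the differences of the list ranged from -0.19 to 0.20.

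**Figure D4:**
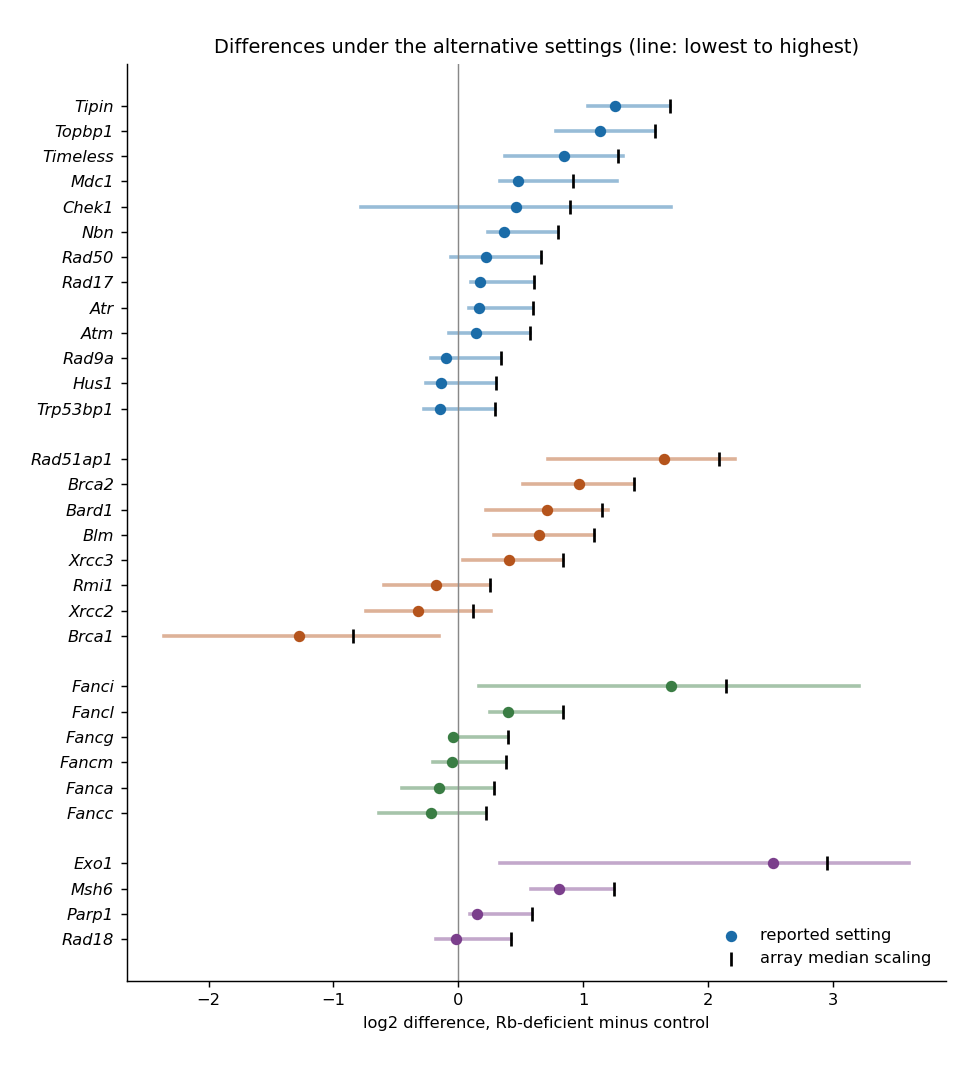
Log2 difference between Rb-deficient and control islets (x axis) of each of the 31 genes as reported (dots), with the lowest and highest value over the alternative settings (lines) and the value with scaling to the array median (ticks). Lines of Tipin, Topbp1, Brca2 and Msh6 stay above 0.5, and those of Chek1, Fanci and Exo1 are the widest.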

How the data were processed

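Per the file headers, the deposited intensity values come from Agilent Feature Extraction 12.0.3.1 and a probe design annotated on mm9. RNA was labelled with Cy3 after amplification with an Ovation kit, per the labels' protocols. Accessions were matched to a RefSeq gene table of GRCm38.p6, which named 32994 of 56605 probes. Control spots were dropped. The 75th percentile of the remaining spots on each array, outliers included, was subtracted after taking log2 of the processed signal. Spots marked as outliers were then left out, and replicate spots were averaged per probe. A probe well above background on both arrays of 1 group was kept, and the brightest stood for its gene. The comparison used limma (3.58.1, under R 4.3.3), two-sided, with Benjamini-Hochberg adjustment over 26378 genes and a threshold of 0.05. It had 2 residual degrees of freedom and a prior worth 1.82. An exact permutation test of 2 against 2 arrays cannot go below 0.333 and was not used. With 4 arrays, their number limits how precise any value is.

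Every member is named. Values per array are given for members above or below both controls with a mean difference of at least 0.5, for Atm, Atr, Chek1, Chek2, Brca1 and Brca2, and for other members where they help, which was decided after the values were seen. Of each further list at most 3 genes with the smallest p were to be named, and some are not reported here. The members and lists were chosen with earlier results of these data known. The scanner files hold no mean signal, so normexp used the median signal. The deposited value table, with intensity values equal to the processed signal times a constant per array (2.44, 2.15, 2.49 and 1.74), served as an alternative. Its columns have medians of 220.06, 180.7, 188.3 and 157.33, and what set the constants is unknown. When an array was left out, the genes and probes stayed those of the full set. The script was tested on simulated data, where it recovered the sizes of the changes that were put in and called none of them at this number of arrays.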

Additional observations from a re-analysis of the deposited data

How the results depend on the processing

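Scaling by each array's median brought the median over all genes to 0.37, from -0.07, and quantile normalization gave 0.033. Median scaling called 480 genes in limma, 234 higher and 246 lower, among them 3 members, Rad51ap1, Fanci and Exo1. It put 22 of 31 members (71.0%) and 30.5% of all genes above both controls. The medians stood at 0.66 for all members, 0.66 for checkpoint, 0.39 for Fanconi and 0.92 for mismatch and other repair. The last was 0.23 with normexp and 0.15 with signal required on all arrays. No other alternative called a member. With an array left out, the medians ran from 0.12 to 0.41 for checkpoint and from 0.34 to 0.62 for mismatch and other repair. The replicate numbers of the titles pair no samples by the labels, and with the number as a replicate block 0 genes were called and the member median was 0.22. Across arrays of like number the deviations correlated at 0.30 over genes.

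Turned in direction were these members. With median scaling the differences were Rad9a 0.34, Hus1 0.30, Trp53bp1 0.29, Xrcc2 0.12, Rmi1 0.26, Fanca 0.29, Fancc 0.22, Fancg 0.40, Fancm 0.38 and Rad18 0.42. With quantile normalization they were Xrcc2 0.26, Fanca 0.12, Fancc 0.034, Fancm 0.014 and Rad18 0.27. With normexp they were Chek1 -0.022 and Fancm 0.031, and with a gene's probes averaged Rad50 -0.055, Fanca 0.048 and Fancg 0.17. Rad18 was 0.011 with the percentile taken over distinct probes, an alternative chosen after seeing the data. With an array left out, the lowest and highest differences were -0.075 and 0.35 for Atm, -0.78 and 1.70 for Chek1, -0.22 and 0.032 for Rad9a, -0.013 and 0.46 for Rad50, -0.74 and 0.10 for Xrcc2, -0.59 and 0.23 for Rmi1, -0.45 and 0.15 for Fanca, -0.64 and 0.20 for Fancc, -0.19 and 0.081 for Fancm and -0.17 and 0.15 for Rad18. The cause was not tested, except that median scaling adds a constant by construction.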

Other observations

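Of the member probes, chosen here for their lack of signal on control array 2, 20 probes of 16 genes were not well above background on control array 2. All 20 were brighter on control array 1, where 12 were well above background (60%), 8 were so on Rb-deficient array 1 (40%) and 11 on Rb-deficient array 2 (55%). Of the 22980 probes of any gene that were not above background on control array 2, 93.6% were brighter on control array 1 and 44.4% were well above background there, against 7.68% and 8.02% on the Rb-deficient arrays. Both sets were picked for low signal on control array 2, so brighter values elsewhere follow in part from that choice. The larger set also holds probes without a gene name, so the shares are not like for like and no conclusion is drawn.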
